A study of Mus musculus with 4 samples.

Results

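The genes of the mouse mitochondrial genome were described in 4 RNA sequencing libraries of sorted dorsal root ganglion cells. The members were all genes that the deposited count files place on chromosome MT, 37 of 41388 listed genes. They comprise 13 protein genes, 2 ribosomal RNA genes and 22 transfer RNA genes. On the plus strand, as the files give it, lie 12 protein genes, both ribosomal RNA genes and 14 transfer RNA genes, and on the minus strand lie mt-Nd6 and 8 transfer RNA genes.

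The mitochondrial genome is a small circular DNA that cells carry in many copies. Both of its strands are transcribed into long RNAs, which are cut at the transfer RNAs into single transcripts. Its protein genes encode core subunits of complexes I, III and IV of the respiratory chain and of ATP synthase (complex V), whose other subunits, with all of complex II, are encoded in the nucleus. Stretches of mitochondrial DNA have also been copied into the nuclear chromosomes, and such copies can share sequence with the genes they came from.

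Each library holds RNA of cytometry-sorted EGFP-positive cells of pooled ganglia (segments T11 to S1), per the labels of 1 animal each. The animals carry an EGFP reporter of Ret, a receptor tyrosine kinase gene of sensory neurons. Male B and male C, with 20 ganglia each, are named as coming from an embryo in the labels of pool size and treatment, and are called the embryo pair here. Male A (20 ganglia) and female A (40 ganglia) are named there as coming from a P2 mouse, and are called the P2-mouse pair. Female A is labelled with 40 ganglia of 1 mouse, against 20 in each male library. That it holds a single mouse rests on this label alone. All 4 libraries carry the stage label P2, postnatal day 2, and the strain label C57BL/6. The genotype label reads Tg(Ret-EGFP)SJ/, while the design text describes a heterozygous insertion of EGFP at Ret. Whether the pool labels mark a difference of age, of library batch or of mice cannot be told apart. Values of a pair are given in the order male B, male C for the embryo pair and male A, female A for the P2-mouse pair. The female is in the P2-mouse pair, so sex is partly confounded with it.

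Gene counts summed to between 17388493 and 28066448 per library. Mitochondrial genes held 1.30% and 1.32% of gene counts in the embryo pair and 2.61% and 2.40% in the P2-mouse pair. The exact binomial 95% intervals spanned at most 2.60 to 2.62%, in male A. The libraries carry no molecular identifiers in the sources used here, so intervals and floors cover counting error only. Of the 37 members, 10 had no count in any library.

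The protein genes with few or no counts lay next to each other (the plot of counts in genome order). Between mt-Co1 and mt-Nd4, 11 members in a row held 0 and 2 counts in the embryo pair and 34 and 113 counts in the P2-mouse pair, summed. They are the complex IV subunit genes mt-Co2 and mt-Co3, the ATP synthase genes mt-Atp8 and mt-Atp6, the complex I genes mt-Nd3 and mt-Nd4l, and the transfer RNA genes mt-Ts1, mt-Td, mt-Tk, mt-Tg and mt-Tr. Of these, 7 were listed at 0 in every library. The transfer RNA genes mt-Tw, mt-Ty and mt-Th, outside this stretch, were also listed at 0. By contrast, mt-Co1 and mt-Nd4 on either side held at least 71261 and 8426 counts in each library.

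**Figure D1:**
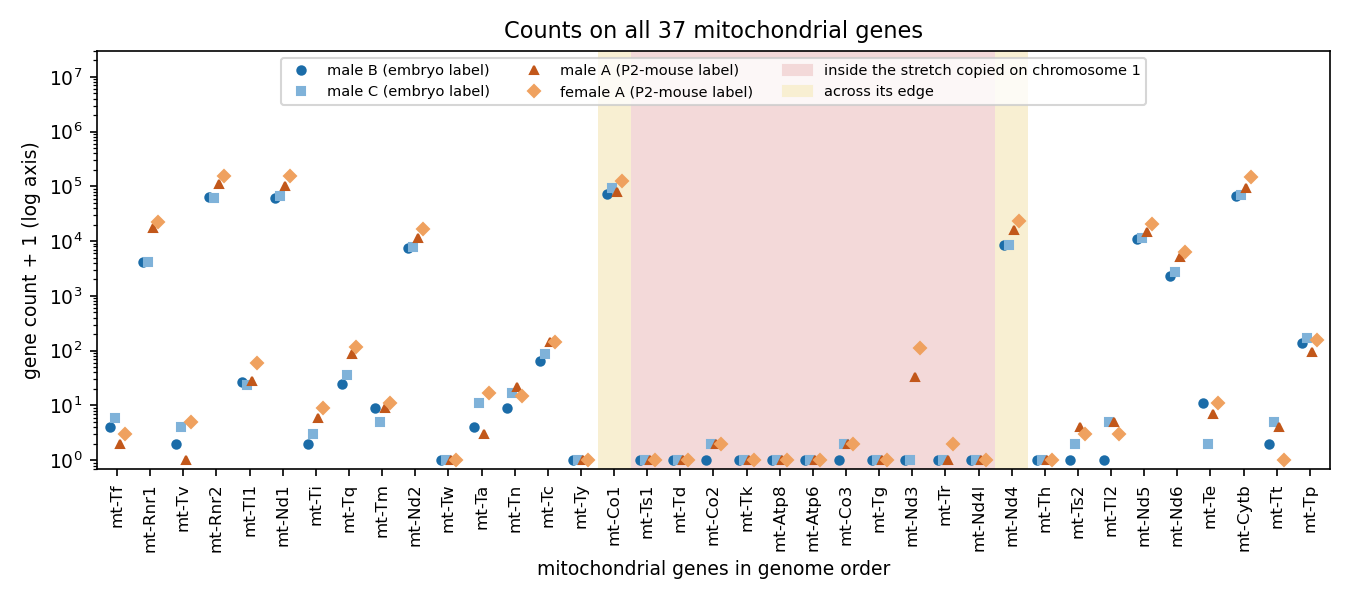
Gene count plus 1 (log axis) of each of the 37 mitochondrial genes in genome order, with 1 point per library. The 11 genes in the shaded stretch sit at or near a count of 0 except mt-Nd3, which reached 32 and 110 counts in male A and female A, while mt-Co1 and mt-Nd4 at its edges have at least 8426 counts.

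This stretch has an annotated nuclear copy. Along chr1:24611535-24616197 (GRCm38, minus strand) GENCODE M21 lists 7 unprocessed pseudogenes (Gm29216, Gm28661, Gm10925, Gm28437, Gm28438, Gm10222 and Gm28439) in the order of positions 6381 to 11042 of MT. They were named after their values were seen. The pseudogenes of mt-Co2, mt-Atp6, mt-Co3, mt-Nd4l and mt-Nd4, 5 of the 7, carried no base that differed from the aligned mitochondrial gene. Of all words of 50 bases in mt-Co2, 100% also occurred in another annotated gene, as did 99.9% in mt-Co3, 99.5% in mt-Atp6, 98.8% in mt-Nd4l and 98% in mt-Nd3. For the genes at the edges the share was 51.1% (mt-Co1) and 62.2% (mt-Nd4), and it was at most 8.19% for the other members. Of mt-Atp8, the pseudogene Gm10925 covers the 43 bases that overlap mt-Atp6. For the remainder of mt-Atp8 and for the 5 transfer RNA genes in the stretch, apart from the 3 bases that mt-Ts1 shares with mt-Co1, no annotated pseudogene covers the matching bases of chromosome 1, and these were not compared. The counting of reads with several matches remains not given in the sources used here, so a member of the stretch listed at 0 is not shown to be silent.

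The copies themselves held few counts. All 7 pseudogenes together held 62 and 56 counts in the embryo pair and 13 and 15 counts in the P2-mouse pair, and most of those in the embryo pair fell on Gm28438. This pseudogene differs from mt-Nd3 at a single base of 345 aligned. The first 80 bases of both are shown because they hold the only base that differs over the aligned stretch, in capitals.
mt-Nd3: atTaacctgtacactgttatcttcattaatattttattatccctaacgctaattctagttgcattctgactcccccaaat
Gm28438: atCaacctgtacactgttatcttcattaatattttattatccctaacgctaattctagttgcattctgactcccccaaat
The mitochondrial sequence is MT 9459 to 9538 on the plus strand, at the start of the coding gene, and the pseudogene sequence is chr1:24613040-24613119 on the minus strand (both GRCm38, from GENCODE M21 transcripts). The difference is T3C, counted from the first base of mt-Nd3, with the base of mt-Nd3 first (MT position 9461).

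Counts on mt-Nd3, which encodes a small membrane subunit of complex I, were 0 and 0 in the embryo pair and 32 and 110 in the P2-mouse pair. Counts on Gm28438 were 54, 51, 1 and 0 in the same order. The pairs thus did not overlap for either gene, with the P2-mouse pair higher for mt-Nd3 and lower for Gm28438 (the plot of mt-Nd3 and its copy). Of the counts on both genes together, mt-Nd3 held 0% in male B (exact binomial 95% interval 0 to 6.6%) and 0% in male C (0 to 6.98%), against 97% in male A (84.2 to 99.9%) and 100% in female A (96.7 to 100%).

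Relative to a floor of 3 counts over the embryo pair, mt-Nd3 was at least 49.5-fold higher in the P2-mouse pair. Gm28438 was 100-fold lower there by summed counts over library totals, with a counting interval of 17.6 to 4000, since it rests on 1 count. No p is given for either gene, as each passed the filter through the pair where it was high and was described for this pattern. In CPM, counts scaled to the same library total, the sum of both genes stood at 2.38 and 2.05 in the embryo pair and 1.90 and 3.92 in the P2-mouse pair, and there the pairs overlapped. Whether the mice differ at this base was not tested, as the files used here hold counts per gene.

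**Figure D2:**
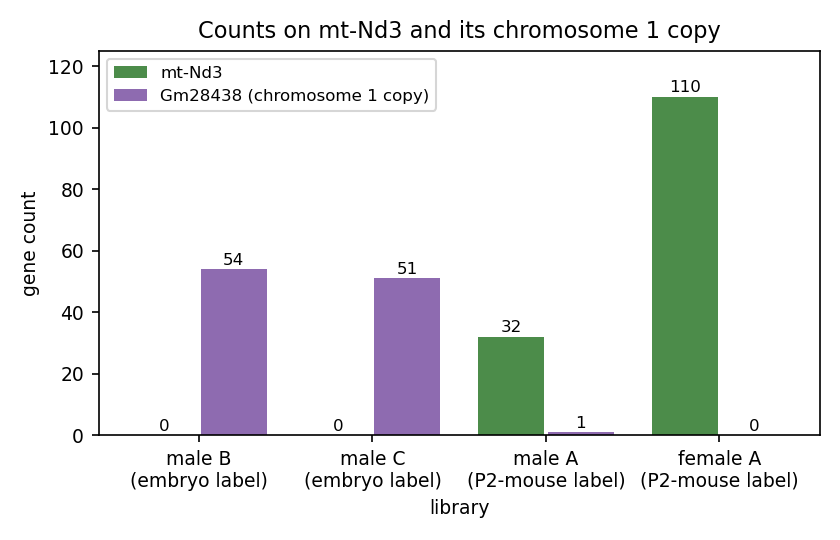
Gene counts of mt-Nd3 and of its chromosome 1 copy Gm28438 in each library, as bars with the count above. The embryo pair has 54 and 51 counts on the copy and none on mt-Nd3, and the P2-mouse pair has 32 and 110 on mt-Nd3 and at most 1 on the copy.

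At the other end of the copied stretch, mt-Co1 and Gm29216 begin to match. The 80 bases from MT position 6381 are shown because they hold every base at which these genes differ, in capitals.
mt-Co1: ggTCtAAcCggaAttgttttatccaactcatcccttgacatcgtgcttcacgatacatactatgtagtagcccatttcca
Gm29216: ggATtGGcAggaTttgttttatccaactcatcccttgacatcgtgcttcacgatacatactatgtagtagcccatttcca
All 6 differing bases lie near the start of the 492 aligned bases, and the remainder is identical. The pseudogene stretch is chr1:24616118-24616197 on the minus strand (GRCm38). Gm29216 held 1, 0, 1 and 3 counts in male B, male C, male A and female A.

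Of the members, 9 had more than 1000 counts in all (7 protein and both ribosomal RNA genes), and they are compared per length, as RPKM (CPM per kilobase of exon). By mean over the 4 libraries the order was mt-Nd1, mt-Cytb, mt-Rnr2, mt-Co1, mt-Rnr1, mt-Nd2, mt-Nd4, mt-Nd6 and mt-Nd5. The first 4 lay between 2597 RPKM (mt-Co1) and 4367 RPKM (mt-Nd1) and the remaining 5 between 343 RPKM (mt-Nd5) and 564 RPKM (mt-Rnr1). Every library placed the same 4 genes above the other 5, but within these sets the order differed between the pairs. mt-Rnr1 ranked 9 in both embryo libraries and 5 in both P2-mouse libraries, and mt-Nd5 ranked 7 and 6 in the embryo pair and 9 in both P2-mouse libraries. In GRCm38, mt-Nd1 spans MT 2751 to 3707, mt-Cytb 14145 to 15288, mt-Rnr2 1094 to 2675, mt-Co1 5328 to 6872 and mt-Rnr1 70 to 1024. Also on MT, mt-Nd2 spans 3914 to 4951, mt-Nd4 10167 to 11544, mt-Nd5 11742 to 13565 and mt-Nd6 13552 to 14070.

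Among neighbours in this order, mt-Nd1 was above mt-Cytb and mt-Cytb above mt-Rnr2 in 4 of 4 libraries, although each difference of means (777 and 860 RPKM) was below the larger SD over libraries. The order of mt-Rnr2 and mt-Co1, of mt-Rnr1 and mt-Nd2, of mt-Nd2 and mt-Nd4, and of mt-Nd6 and mt-Nd5 held in 2 of 4 libraries each. The gap from mt-Co1 down to mt-Rnr1 (2034 RPKM) was larger than either SD. Levels of mt-Co1 and mt-Nd4 depend on the length over which their reads could be counted. Per kilobase of unshared words, mt-Co1 ranked first at 5490 CPM per kilobase and mt-Nd4 ranked 5 at 1222 CPM per kilobase.

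**Figure D3:**
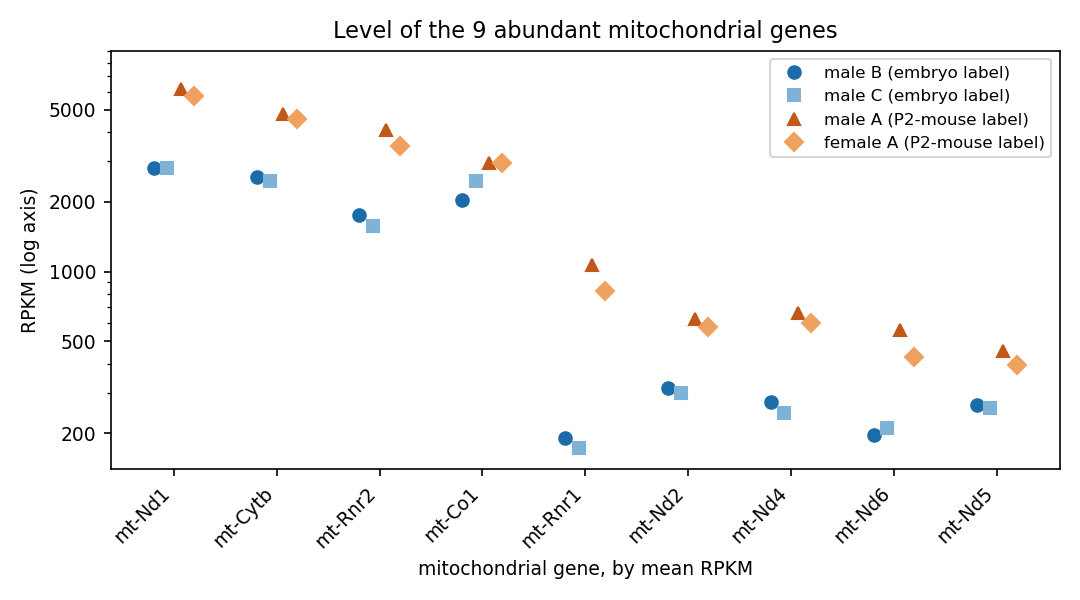
RPKM (log axis) of the 9 mitochondrial genes with more than 1000 counts, ordered by mean RPKM, with 1 point per library. Both P2-mouse libraries lie above both embryo libraries for each gene, least so for mt-Co1 and most so for mt-Rnr1.

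The P2-mouse pair was set against the embryo pair with the edgeR quasi-likelihood test over all genes, with Benjamini-Hochberg adjustment and a threshold of 0.05. Of 15 members that passed the filter on low counts, 11 rose (7 protein, both ribosomal RNA and 2 transfer RNA genes), none fell and 4 were not called by edgeR. None was lower at an unadjusted p under 0.05, by DESeq2 or by limma-voom either. Of all 15568 genes tested, 22.3% were called higher and 20% lower. Without mt-Nd3, which passed the filter through the P2-mouse pair alone, 10 members rose. In CPM, 13 of the 15 lay wholly higher in the P2-mouse pair and 1 wholly lower, where 42.5% of all tested genes lay wholly higher. The other 22 members did not pass the filter and were not tested.

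Summed over the members, the P2-mouse pair stood at 25032 ± 1510 CPM and the embryo pair at 13103 ± 132 CPM (SD, n = 2 each), a ratio of 1.91. Between any library of each pair the ratio lay between 1.82 and 2.01. The ribosomal RNA genes had a ratio of 2.47, the protein genes 1.76 and the transfer RNA genes 1.55. By strand, genes on the minus strand had a ratio of 2.33 and those on the plus strand 1.91. The minus-strand sum came mostly from mt-Nd6, whose own ratio was 2.42, and does not stand for the strand as a whole. Among transfer RNA genes alone, the ratio was 1.53 on the minus strand and 1.68 on the plus strand. Over single libraries of the pairs these spanned 1.27 to 1.84 and 1.59 to 1.78, so the ranges overlapped. With 2 libraries against 2, an exact permutation test of such a sum cannot give a two-sided p below 0.333, so these sums carry no test. Fewer cells of a type and less RNA per cell cannot be told apart in bulk samples, and a share of counts also depends on every other transcript.

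Of the complex I genes, mt-Nd1 was the most abundant. It stood at 2790 and 2797 RPKM in the embryo pair and 6157 and 5725 RPKM in the P2-mouse pair. It rose by 0.98 on the log2 scale (SE 0.077, edgeR adjusted p = 0.000165), and the pairs did not overlap. mt-Nd2 had 314, 298, 622 and 578 RPKM in the same order of libraries and rose by 0.86 (SE 0.088, edgeR adjusted p = 0.000338). mt-Nd4 had 274, 246, 661 and 601 RPKM. It rose by 1.17 (SE 0.097, edgeR adjusted p = 0.000193), the largest rise among the 4 complex I genes on the plus strand with more than 1000 counts.

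mt-Nd5, a proton-pumping subunit, stood at 264 and 256 RPKM in the embryo pair and 456 and 395 RPKM in the P2-mouse pair. It rose by 0.60 (SE 0.097, edgeR adjusted p = 0.00223), the smallest rise among the members called. mt-Nd4l was listed at 0 throughout. The pairs were separate for each complex I gene that had counts.

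mt-Nd6 is the only protein gene on the minus strand. It stood at 197 and 212 RPKM in the embryo pair and 560 and 429 RPKM in the P2-mouse pair, and rose by 1.16 (SE 0.14, edgeR adjusted p = 0.000603). It shares 14 bases with mt-Nd5 on the opposite strand, and without a stated strand setting reads of its transcript and of an RNA antisense to it cannot be told apart. Its level over that of mt-Nd5 was 0.747 and 0.827 in the embryo pair and 1.23 and 1.08 in the P2-mouse pair, so mt-Nd6 was lower than its neighbour in the embryo pair and higher in the P2-mouse pair.

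mt-Cytb, the mitochondrial subunit of complex III, stood at 2575 and 2464 RPKM in the embryo pair and 4782 and 4541 RPKM in the P2-mouse pair. It rose by 0.77 (SE 0.076, edgeR adjusted p = 0.000295), with no overlap of the pairs.

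Among complex IV genes, mt-Co1, which encodes the catalytic subunit, held nearly all counts. It stood at 2035 and 2467 RPKM in the embryo pair and 2934 and 2953 RPKM in the P2-mouse pair. Male C was closer to the P2-mouse pair than male B was, though the pairs did not overlap. Its log2 fold change was 0.27 (SE 0.10, edgeR adjusted p = 0.0604) and it did not pass the test. Without male C it was 0.38 (edgeR adjusted p = 0.00115) and passed. It held 24.2% and 28.9% of mitochondrial counts in the embryo pair and 17.4% and 19.0% in the P2-mouse pair, the largest shift of mean share of any member. mt-Co2 and mt-Co3 each had 0 counts in male B and 1 count in each of the other libraries. The ATP synthase genes mt-Atp6 and mt-Atp8 were listed at 0 in all 4.

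The ribosomal RNA genes rose by unequal amounts. mt-Rnr1, the RNA of the small ribosomal subunit, stood at 192 and 172 RPKM in the embryo pair and 1067 and 823 RPKM in the P2-mouse pair. It rose by 2.26 on the log2 scale (SE 0.14, edgeR adjusted p = 0.000134), from 182 ± 14.0 RPKM in the embryo pair to 945 ± 173 RPKM in the P2-mouse pair (SD, n = 2 each). Apart from mt-Nd3, this was the largest change of any tested member. mt-Rnr2, the RNA of the large subunit, stood at 1749 and 1570 RPKM in the embryo pair and 4097 and 3505 RPKM in the P2-mouse pair and rose by 1.08 (SE 0.10, edgeR adjusted p = 0.000267). Both genes lie on the same strand, with only the transfer RNA gene mt-Tv between them. The level of mt-Rnr2 over mt-Rnr1 was 9.12 in both libraries of the embryo pair and 3.84 and 4.26 in the P2-mouse pair.

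Transfer RNA genes held 289 and 364 counts in the embryo pair and 402 and 542 counts in the P2-mouse pair, at most 0.00231% of gene counts in each. The 8 genes on the minus strand took 86.2% and 87.4% of these counts in the embryo pair and 87.3% and 83.8% in the P2-mouse pair. The exact binomial 95% interval was widest in male B, at 81.6 to 89.9%. The plus strand has 14 such genes, 10 of them outside the copied stretch, and these 10 held between 40 and 87 counts per library. The minus-strand excess was present in every library, and it also holds over the genes outside the stretch.

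The 3 most abundant transfer RNA genes, mt-Tp (proline), mt-Tc (cysteine) and mt-Tq (glutamine), all on the minus strand, held 76.4 to 80.1% of transfer RNA counts. Their gene sequences (GRCm38, from GENCODE M21, 5′ to 3′ on the minus strand) are shown because they carry most of this signal.
mt-Tp: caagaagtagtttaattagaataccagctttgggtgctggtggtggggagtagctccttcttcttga
mt-Tc: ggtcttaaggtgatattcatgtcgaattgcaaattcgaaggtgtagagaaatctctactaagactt
mt-Tq: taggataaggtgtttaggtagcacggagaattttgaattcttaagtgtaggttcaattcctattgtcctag
They lie at MT 15356 to 15422, 5192 to 5257 and 3772 to 3842. Each is 66 to 71 bases long, and without a stated strand setting their reads may come from either strand.

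mt-Tp stood at 6.18 and 6.83 CPM in the embryo pair and 5.46 and 5.45 CPM in the P2-mouse pair. It was the only tested member that was wholly lower in the P2-mouse pair, but its log2 fold change of -0.37 (SE 0.23, edgeR adjusted p = 0.235) did not pass the test. mt-Tc stood at 2.82, 3.45, 8.11 and 5.20 CPM in the same order and rose by 0.96 (SE 0.31, edgeR adjusted p = 0.0417). mt-Tq stood at 1.06, 1.41, 4.95 and 4.10 CPM and rose by 1.75 (SE 0.35, edgeR adjusted p = 0.00558). mt-Tq overlaps mt-Ti on the opposite strand by 3 bases.

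The calls on mt-Tc and mt-Tq rest on few counts. Without male A, mt-Tc was at 0.61 (edgeR adjusted p = 0.278) and mt-Tq at 1.61 (edgeR adjusted p = 0.0579), and without male B mt-Tc was at 0.81 (edgeR adjusted p = 0.0873).

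Of the next transfer RNA genes by level, mt-Tl1 (leucine) stood at 1.15, 0.924, 1.55 and 2.10 CPM in male B, male C, male A and female A, a log2 fold change of 0.71 (edgeR adjusted p = 0.223). mt-Tn (asparagine) stood at 0.353, 0.643, 1.21 and 0.499 CPM, where the pairs overlapped (0.61, edgeR adjusted p = 0.492). mt-Tm (methionine) stood at 0.353, 0.161, 0.460 and 0.356 CPM and was not tested. Neither mt-Tl1 nor mt-Tn passed the test. Of the other 16 transfer RNA genes, 8 had no count besides at most 1 in all libraries, and the other 8 had between 6 and 31 counts in all.

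Base composition moved with the result. The 9 abundant members held 34.1 to 39.9% G and C, where the median of the tested genes was 49.3%. The 866 nuclear genes tested in the same range had a median log2 fold change of 0.78, and 55.2% of them were called higher. The median of the 9 members was 0.98. With offsets for GC content and length fitted in each library, 6 of 15 members were higher and 1 lower, where 12.4% of all tested genes were called higher and 20.9% lower. The 6 include mt-Nd3, which passed the filter through the P2-mouse pair alone.

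With these offsets mt-Rnr1 (1.59, edgeR adjusted p = 6.63e-05), mt-Nd3 (0 counts in the embryo pair), mt-Nd4 (0.49), mt-Nd1 (0.40), mt-Rnr2 (0.36) and mt-Cytb (0.28) were still called higher. mt-Tp was called lower at -0.77 (edgeR adjusted p = 0.0407). mt-Nd2 (0.21), mt-Tq (0.84), mt-Nd6 (0.11), mt-Tc (0.05) and mt-Nd5 (-0.08) were no longer called.

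Within the mitochondrial transcripts, a fit with the mitochondrial protein gene counts as library size gave changes relative to those genes. Under it 6 of 15 members, again with mt-Nd3 among them, were higher and 2 lower. Of all tested genes 7.16% were called higher and 51.9% lower, and the median of all genes moved to -0.70 on the log2 scale. mt-Rnr1 (1.56, edgeR adjusted p = 4.51e-06), mt-Tq (1.05), mt-Nd4 (0.46), mt-Nd6 (0.45), mt-Rnr2 (0.38) and mt-Nd3 (0 counts in the embryo pair) were higher. mt-Co1 (-0.42, edgeR adjusted p = 0.0136) and mt-Tp (-1.06, edgeR adjusted p = 0.00442) were lower. mt-Nd1, mt-Nd2, mt-Nd5, mt-Cytb and mt-Tc were not called. mt-Rnr1 was called higher, and mt-Tp lower, both under this scaling and with the offsets.

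**Figure D4:**
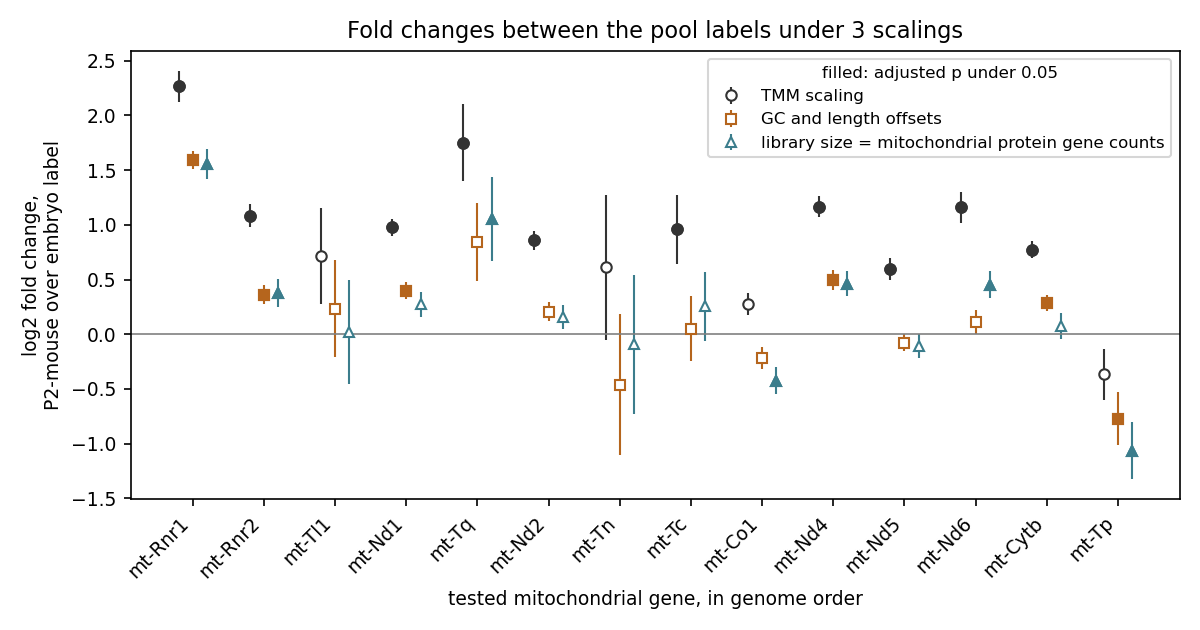
Log2 fold change of the P2-mouse pair over the embryo pair, with bars of 1 SE, for 14 tested members (mt-Nd3 left out) under TMM scaling, with GC and length offsets, and with mitochondrial protein gene counts as library size. mt-Rnr1 stays above 1.5 under all 3, while mt-Co1 and mt-Nd5 lie below 0 under the latter pair of scalings.

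Most of the called nuclear partners of the mitochondrial subunits fell. Of 83 nuclear genes of oxidative phosphorylation subunits tested, 4 rose and 46 fell, with a median log2 fold change of -0.35, where the median of all tested genes was 0.02. Over all tested genes 22.3% rose and 20% fell, and with the GC and length offsets 12.4% rose and 20.9% fell. The counts below, by complex and with the offsets, were not tested against these shares. By complex, 24 of 36 genes fell and 1 rose in complex I, 4 of 4 fell in complex II, 4 of 9 fell and 2 rose in complex III, 6 of 15 fell and 1 rose in complex IV, and 8 of 19 fell in complex V. With the GC and length offsets 39 fell and 8 rose, without male A 30 fell and 1 rose, and without female A 26 fell and 2 rose. Of all tested genes, 10.3% fell and 11.8% rose without male A, and 11.3% fell and 13.6% rose without female A. Of complex I genes 15 fell without female A, and with either library of the P2-mouse pair left out in turn 2 of complex IV and 3 of complex V fell. No test was made of the difference between these and the mitochondrial genes.

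Among the abundant nuclear subunit genes, Ndufa4 stood at 858, 755, 650 and 639 CPM in male B, male C, male A and female A (log2 fold change -0.44, edgeR adjusted p = 0.00643). Ndufs8 of complex I fell by 1.26 (edgeR adjusted p = 0.000141) and Ndufs5 by 1.07. Sdhb and Sdhd of complex II, which has no mitochondrial subunit gene, fell by 0.90 and 0.99, and Sdhc by 1.05. Uqcrc1 of complex III fell by 0.84 and Uqcrq by 0.68, Cox4i1 of complex IV fell by 0.66 and Cox7a2l by 0.87, and Atp5a1, Atp5o and Atp5g1 of complex V fell by 0.30, 0.82 and 0.90. Ndufv2 (-0.15), Uqcrc2 (-0.05), Cox6a1 (0.13) and Atp5b (0.02) did not pass the test. Cox5a stood at 7.28 and 41.6 CPM in the embryo pair and 93.2 and 105 CPM in the P2-mouse pair, and rose by 1.90 (SE 0.61, edgeR adjusted p = 0.0399), with a wide gap between the embryo libraries.

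Set side by side per complex, counts on mitochondrial subunit genes over those on nuclear ones were 0.498 and 0.514 for complex I in male B and male C, against 1.4 and 1.32 in male A and female A. For complex III the ratio was 1.44 and 1.38 against 3.14 and 2.98. For complex IV, where mt-Co1 carries the mitochondrial part, it was 1.15 and 1.41 against 1.84 and 1.83. The pairs did not overlap for these 3 complexes. Of complex IV, mt-Co2 and mt-Co3 lie in the copied stretch and mt-Co1 shares 51.1% of its words. Of complex I, mt-Nd3 and mt-Nd4l lie in it and mt-Nd4 shares 62.2%. The ratios are therefore not ranked between complexes. For complex V it was 0 in all libraries, and both of its mitochondrial genes lie in the copied stretch.

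**Figure D5:**
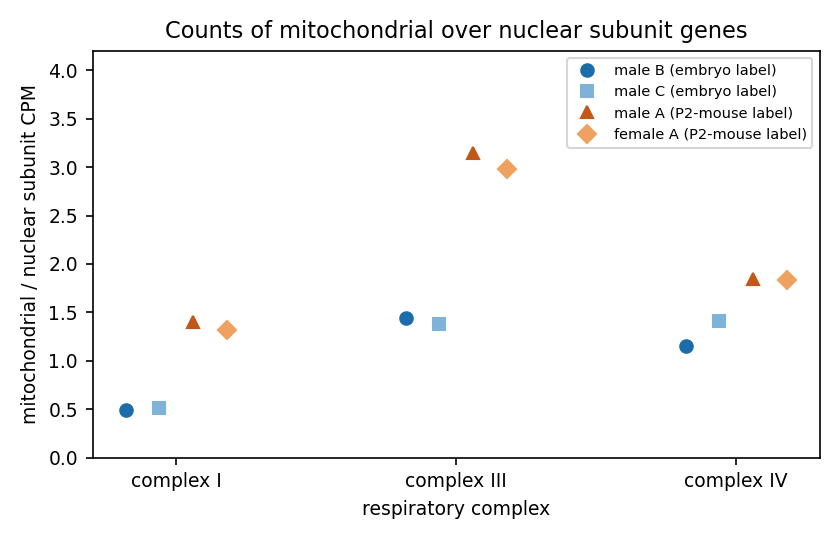
Summed CPM of mitochondrial subunit genes over summed CPM of nuclear subunit genes for complexes I, III and IV, with 1 point per library. Each P2-mouse library is above each embryo library, with nearest values of 1.32 against 0.514 in complex I and 1.83 against 1.41 in complex IV. The complexes are not ranked, as genes of complexes I and IV lie in the copied stretch.

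Nuclear genes that act on mitochondrial RNA were called in both directions, to be read against the 22.3% of all tested genes that rose and the 20% that fell. Of 18 genes of mitochondrial transcription and replication, 1 rose and 4 fell (median -0.16), so the share that fell was near that of all genes. The most abundant were the termination factor family genes Mterf4, which fell by 0.43 (edgeR adjusted p = 0.0247), and Mterf3 (0.17, not called). Top1mt, the mitochondrial topoisomerase gene, fell by 1.13, and Polg2, of the accessory subunit of the DNA polymerase, rose by 0.71. With either P2-mouse library left out in turn, 1 gene of this list fell and 0 rose. Of 35 genes of mitochondrial RNA processing and stability, 11 rose and 10 fell (median 0.13), against 5 and 4 without male A and 6 and 6 without female A. Rexo2, an oligoribonuclease gene, was at -0.29 and not called. Grsf1, of an RNA granule protein, rose by 0.37, Mto1, of a transfer RNA modifying enzyme, rose by 1.53, and Cdk5rap1, of another, fell by 2.45 from 37.5 and 34.1 CPM in the embryo pair to 6.15 and 7.95 CPM in the P2-mouse pair (edgeR adjusted p = 0.000141).

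Of 80 tested genes of mitochondrial ribosomal proteins, which bind the RNAs of mt-Rnr1 and mt-Rnr2, 2 rose and 51 fell (median -0.45), and 27 and 26 fell without male A and without female A. Mrpl20 fell by 0.41, Mrpl28 by 0.99, Mrps18b by 1.24 and Mrpl4 by 1.19. Of 23 transfer RNA synthetase genes 3 rose and 7 fell (median -0.06), against 0 and 4 without male A. Of all genes 22.3% rose and 20% fell (11.8% and 10.3% without male A), and the list was not tested against that background. Lars2 and Kars, the most abundant, fell by 0.30 and 0.84, Tars2 by 1.13 and Gatb, of a subunit of the glutamine amidotransferase, by 1.06. Of 13 translation factor genes 2 rose and 5 fell (median -0.05), against 0 and 3 without male A and 1 and 2 without female A, with Gfm1 (0.02) and Oxa1l (-0.05) not called, and Tufm and Mrrf falling by 1.24 and 0.87.

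Of 13 regulators of mitochondrial biogenesis, 6 rose (median 0.25), whereas with the GC and length offsets 4 rose and 3 fell (median -0.28). Of all tested genes 22.3% rose and 20% fell, and with the offsets 12.4% rose and 20.9% fell. Neither list of this paragraph was tested against these shares. The AMP-activated kinase genes Prkaa1 and Prkaa2 rose by 0.51 and 0.62, the transcription factor gene Gabpa by 1.47 and the deacetylase gene Sirt1 by 1.4. Of 16 other abundant nuclear genes of mitochondrial proteins, 2 rose and 8 fell (median -0.50). The adenine nucleotide carrier gene Slc25a4 fell by 0.60 and the porin gene Vdac1 by 0.73, while the import receptor gene Tomm20 rose by 1.05. The chaperone gene Hspa9 rose by 1.31, with 58.5 and 173 CPM in the embryo pair against 312 in each library of the P2-mouse pair.

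Most listed sensory neuron, Schwann cell and fibroblast markers and immediate early genes were called between the pool labels. Other marker lists are given with their counts, and the part of any of them in the mitochondrial differences was not tested. All these counts, here and below, are to be read against the 22.3% of all tested genes that rose and the 20% that fell. No list was tested against these shares. Of 14 sensory neuron markers 10 fell and 2 rose, with sums of 16613 to 17631 CPM in the embryo pair and 10105 to 10493 CPM in the P2-mouse pair (Tubb3 -1.58, Calca -1.28). Of 13 Schwann cell markers 12 rose, from 3054 to 3096 CPM up to 5142 to 8155 CPM (Mbp 1.99, Egr2 3.13, Cldn19 3.00, and Pmp22 at 0.41 not called). Of 8 fibroblast markers 5 rose, from 309 to 328 CPM up to 1387 to 1524 CPM (Col1a2 2.57, Col3a1 3.25).

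Of 7 satellite glia markers 3 rose and 2 fell, and their sums overlapped between the pairs (490 to 829 against 817 to 959 CPM). The rule for named genes picked Cdh19 (2.83), Kcnj10 (2.20) and Apoe (-0.39, not called). It named neither of the 2 that fell, so the named genes do not stand for the list. Of 7 tested endothelial and mural markers 3 rose and 1 fell, with sums of 92.6 to 100.1 against 101 to 103 CPM (Rgs5 -0.03 and Pdgfrb -0.34, neither called). Over all tested genes 22.3% rose and 20% fell, and lists this small cannot be told from those shares by their counts alone. Of 5 tested erythroid markers 3 rose (5.26 to 16.9 against 44.0 to 56.8 CPM, with Hbb-bs 2.21 and Hbb-bt 2.82). Both of the 2 tested macrophage markers missed the threshold (2.56 to 3.05 against 2.67 to 6.04 CPM, led by C1qb at -0.31 and Cd68 at 1.56), and of 2 skeletal muscle markers 1 fell (13.3 to 13.7 against 7.02 to 7.52 CPM, Acta1 -0.97, with Mylpf at -0.77 not called). Without male A 1 endothelial and mural marker, 1 erythroid marker and 0 muscle markers were called, and without female A 0 endothelial and mural and 0 muscle markers. No marker in these lists was at 0 in every library.

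Of 14 immediate early genes, which are induced within minutes of stimulation, 12 rose (342 to 498 against 1238 to 1608 CPM, with Fos 1.60, Nr4a1 2.46, Egr2 3.13 and Fosb 3.10). Egr2 is also in the list of Schwann cell markers. Of 6 tested genes of RNAs without a poly(A) tail 1 rose, with sums of 39.6 to 72.6 CPM against 71.4 to 85.3 CPM (Hist1h1c 0.21 and Hist1h2bc 0.54, neither called), and 3 of the 13 listed genes were at 0 in every library.

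The female library was also set against the 3 males. Of 18 members that passed the filter none was called by edgeR (smallest adjusted p = 0.951), and 0% of all 16708 tested genes were. At an unadjusted p under 0.05 there were 0 members by edgeR without a pool term and 0 by DESeq2. The log2 fold change of mt-Nd1 was 0.48 (SE 0.47) and of mt-Rnr1 0.74 (SE 0.98), and 16 of 18 members were above 0. With the pool label as a term, 4 of 18 were above 0 and none was called (smallest adjusted p = 1). In that edgeR fit 2 members were under an unadjusted p of 0.05, both lower in the female library, mt-Rnr1 at -0.39 (SE 0.15) and mt-Nd6 at -0.40 (SE 0.15), with mt-Nd1 at -0.12 (SE 0.10). Without male A, the only male with the P2-mouse label, 9 members were called higher, but that fit sets 1 P2-mouse library against the embryo pair. With 1 female library and SEs of this size, a sex difference of the size seen between the pairs was not detectable without the pool term.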

How the data were processed

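RNA of sorted cells was amplified from 10 ng with a SMARTer Ultra Low Input kit and 12 PCR cycles, per the labels' protocols. Per the submitters' processing notes, the authors assigned reads to genes of GRCm38.p2 with featureCounts 1.4.5 (Subread), and the deposited count values are the result. Their deposited CPM values are counts scaled to a common total of gene counts, and the deposited RPKM values are CPM per kilobase of exon, as recomputed here. Aligner, strand setting, read length and the handling of multiple matches stay not given in the sources used here. Files pair genes with no symbols, and 97.3% of IDs matched a symbol in the reference tables. All 37 members had the same coordinates in GENCODE M21.

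Groups follow the pool labels. The main test was the edgeR 4.0.16 quasi-likelihood test (R 4.3.3, TMM, filterByExpr with minimum count 10 and total 15, Benjamini-Hochberg over all genes). SE is the log2 fold change over the square root of F. The labels give 1 animal per library, and it is assumed that the animals differ between libraries. Alternatives were other size factors, nuclear scaling, mitochondrial protein genes as library size, filters, DESeq2 1.42.0, limma-voom (limma 3.58.1), robust empirical Bayes, a sex term, GC and length offsets (mgcv 1.9.3) and each library left out. Levels per unshared kilobase were added after seeing the data. Shared words of 50 bases were counted between annotated transcripts. Tests were checked on simulated data, and a genome sequence was not used.

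The members and lists were chosen with earlier results of these data known. All members are accounted for. Protein and ribosomal RNA genes with counts are given by library, transfer RNA genes by the 6 highest and any called. In each nuclear list the 2 most abundant genes and up to 2 called genes of largest change with at least 5 CPM are named. A marker that the rule for named genes picked is not reported here.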

Additional observations from a re-analysis of the deposited data

How the results depend on the processing

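No paired analysis was possible because replicate numbers follow accession order and pair no libraries. Between the pool labels, mt-Rnr1, mt-Rnr2 and mt-Nd4 were called higher under every alternative in which they were tested. The same calls of mt-Nd3 rest on 0 counts in the embryo pair and show no stability. The members called higher went from 11 to 6 with mitochondrial protein genes as library size and to 6 with GC and length offsets, and those called lower from 0 to 2 and 1. Each of these counts of members called higher includes mt-Nd3. Leaving out 1 library gave 9 to 12 higher and 0 lower, with the lone library of a pair assumed to vary like the other pair. With mitochondrial protein genes as library size, mt-Tn was at -0.09, mt-Co1 at -0.42 and mt-Nd5 at -0.11. With the offsets mt-Tn was at -0.46, mt-Co1 at -0.22 and mt-Nd5 at -0.08. Without 1 library, mt-Tn ranged from -0.12 to 1.16. The cause was not tested. mt-Co1 passed the test with library totals alone (0.39), without a filter (0.26), with limma-voom (0.28) and with robust empirical Bayes (0.27). mt-Tc did not pass with DESeq2 (0.95) or limma-voom (0.87).

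Of all genes, 3472 were called higher and 3112 lower, against 1100 and 7980 with mitochondrial protein genes as library size, 2201 and 1769 with a sex term, and 1917 and 3231 with the offsets. Without male A they were 1935 and 1681, and without female A 2204 and 1834. With library totals alone the median of all genes moved to 0.13. Nuclear oxidative phosphorylation genes called lower went from 46 to 75 with mitochondrial protein genes as library size, to 26 with a sex term and to 26 to 46 with 1 library left out. Those called higher went from 4 to 0, 2, 8 (offsets) and 1 to 7 (1 library left out). Mitochondrial ribosomal protein genes called lower went from 51 to 24 with a sex term, and those called higher from 2 to 5 (library totals), 1 (mitochondrial library size, 5 CPM filter, robust) and 0 (DESeq2, sex term). With 1 library left out these were 26 to 50 and 0 to 7.

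With protein-coding and mitochondrial genes alone as denominator, the mitochondrial share was 1.33% and 1.35% in the embryo pair and 2.67% and 2.45% in the P2-mouse pair. Without members that share over 50% of their words it was 0.949 and 0.905%, and 2.07 and 1.86%, and the ratio of the pairs went from 1.91 to 2.12. By CPM the order of levels became mt-Rnr2 (1), mt-Nd1 (2), mt-Cytb (3), mt-Co1 (4), mt-Nd5 (5), mt-Nd4 (6), mt-Rnr1 (7), mt-Nd2 (8) and mt-Nd6 (9). Per unshared kilobase it was mt-Co1 (1), mt-Nd1 (2), mt-Cytb (3), mt-Rnr2 (4), mt-Nd4 (5), mt-Rnr1 (6) and mt-Nd2 (7).

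For the female against the males, the pool term turned mt-Rnr1 (-0.39), mt-Rnr2 (-0.24), mt-Nd1 (-0.12), mt-Tq (-0.29), mt-Tm (-0.38), mt-Nd2 (-0.12), mt-Tc (-0.66), mt-Co1 (-0.01), mt-Nd4 (-0.15), mt-Nd5 (-0.23), mt-Nd6 (-0.40) and mt-Cytb (-0.09) below 0, none of them called. Without 1 male, mt-Tc ranged from -0.19 to 0.61, mt-Tm from -0.26 to 0.18 and mt-Te from -0.24 to 0.46. Without 1 male, 0 to 9 members were called higher.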

Other observations

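Unprocessed pseudogenes on chromosome 2 also share words with members and held counts. Gm13340, with 27.5% of its words of 50 bases in mt-Co1, stood at 3.13 and 3.70 CPM in the embryo pair and 4.43 and 4.99 CPM in the P2-mouse pair. Gm13341, with 36% of its words in mt-Co2, stood at 0.265, 0.482, 2.65 and 1.71 CPM in the same order, on 6, 12, 46 and 48 counts. Both were named after their values were seen. For both genes the P2-mouse pair lay above the embryo pair, as did 42.5% of all tested genes, while mt-Co2 itself held at most 1 count per library. Other copies went in different directions, on few counts. Gm10925, Gm28661 and Gm29216 of chromosome 1 and Gm11512 of chromosome 11 also lay wholly higher in CPM in the P2-mouse pair. None of these held more than 7 counts in a library. Gm13339 of chromosome 2 held 1, 0, 4 and 0 counts in the same order of libraries, and the pairs overlapped. Gm4076 of chromosome 13, which shares words with mt-Nd5, held 5, 8, 2 and 3 counts and was lower in CPM in the P2-mouse pair.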
